A study of Homo sapiens with 6 samples.

Results

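The genes described here are 10 human genes of cellular iron uptake, storage and regulation: TFRC, SLC11A2, STEAP3, FTL, FTH1, NCOA4, SLC40A1, IREB2, ACO1 and HMOX1. They were taken from the deposited expression table by their gene symbols, and all 10 were found among its 58735 gene rows. The data are RNA sequencing of Huh7, an established line of human liver cancer cells, grown in a serum-containing medium. Both groups carried a short hairpin RNA. The 3 shcontrol libraries had a control hairpin, and the 3 shTRIM15 libraries had a hairpin against TRIM15, an E3 ubiquitin ligase gene of the tripartite motif family. The sources used here do not say how many hairpins against TRIM15 there were, how they were delivered or how much iron the medium held. Nothing in the labels says that the 3 libraries of a group came from separate cultures, so p-values measure the spread between these libraries, which may be technical.

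Cells take up iron mainly as transferrin bound to the transferrin receptor, reduce it in the endosome and move it to the cytosol, where ferritin stores what is not used and ferroportin exports the excess. Control comes from the iron regulatory proteins, which bind a short hairpin in messenger RNAs, the iron-responsive element, when iron is scarce. Bound near the start of a ferritin or ferroportin message the proteins block translation, and bound in the 3' untranslated region (UTR) of the transferrin receptor message they protect it from decay. The liver is a main store of iron in the body, and hepatocytes make transferrin and the iron hormone hepcidin.

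Because these hairpins divide the 10 genes, they are shown first. Annotated coding transcripts of GENCODE 29 on GRCh38 were searched on the transcript strand for a bulged C, 5 bases, the loop letters CAGTG with any sixth base, and 5 bases that pair with the first 5 (G with T allowed, at least 4 of 5 pairs). Each site is printed 5′ to 3′ with 6 bases on either side, and capitals mark the 6-base loop.
TFRC, 3' UTR, chr3:196050979-196051007, minus strand: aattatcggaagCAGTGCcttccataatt
TFRC, 3' UTR, chr3:196050575-196050603, minus strand: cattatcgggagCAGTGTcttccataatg
TFRC, 3' UTR, chr3:196050510-196050538, minus strand: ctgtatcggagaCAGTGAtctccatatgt
TFRC, 3' UTR, chr3:196050463-196050491, minus strand: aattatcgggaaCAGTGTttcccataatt
SLC11A2, 3' UTR, chr12:50988269-50988297, minus strand: agccatcagagcCAGTGTgtttctatggt
FTH1, 5' UTR, chr11:61967574-61967602, minus strand: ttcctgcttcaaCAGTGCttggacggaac
FTL, 5' UTR, chr19:48965335-48965363, plus strand: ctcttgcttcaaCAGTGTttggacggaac
SLC40A1, 5' UTR, chr2:189580661-189580689, minus strand: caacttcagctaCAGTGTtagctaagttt
The 4 TFRC sites, and those of FTH1, FTL and SLC40A1, had all 5 pairs, and the SLC11A2 site had 4. Such a hairpin with 5 pairs was present in the 5' UTR of 0.189% of 19032 protein-coding genes and in the 3' UTR of 0.69% of 19133. With 4 pairs allowed the shares were 1.53% and 4.74%, and the 3' UTRs of IREB2 and ACO1 then also held 1 match each. The site was in 3 of 4 annotated coding transcripts of TFRC, 5 of 18 of SLC11A2, 7 of 8 of FTH1, 1 of 1 of FTL and 1 of 5 of SLC40A1. The IREB2 match was in 1 of 4 and the ACO1 match in 1 of 3. The deposited values are per gene, so forms with and without the hairpin cannot be told apart. A match describes the letters and not whether the site was bound.

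Whole reads, which could be counted back from the table, came to 17332508 to 19556855 per library. FPKM are reads per unit of gene length and of library size, and the deposited values also carry a scaling between libraries. TRIM15 was at 5.17, 5.09 and 4.88 FPKM in shcontrol and 3.23, 2.11 and 2.51 FPKM in shTRIM15, 51.8% of control (limma adjusted p = 0.00416). All 11 hepatocyte markers passed the filter on low values, with ALB the most abundant at 914 FPKM. Their sum was 2800 to 2812 FPKM in shcontrol and 2671 to 2711 FPKM in shTRIM15, without overlap, and limma called 3 of them lower (KRT8, KRT18 and FGB) and 0 higher. Erythroid and endothelial markers were below 0.5 FPKM in every library (8 of 8 and 6 of 6), and of these HBG2, SLC4A1 and CDH5, among others, were listed at 0 throughout. Macrophage markers summed to 16.3 to 17.7 FPKM in shcontrol and 16.5 to 18.0 in shTRIM15, mostly CD14 (13.8 FPKM) and LYZ (3.32 FPKM). Of 7 fibroblast and stellate cell markers 4 were below 0.5 FPKM in all libraries, DCN among them. Their sum was 62.5 to 66.2 FPKM in shcontrol and 55.6 to 57.8 in shTRIM15, without overlap, most of it LUM (54.1 FPKM on average). Of the 3 that passed the filter, limma called 2 lower and 0 higher. The part of the hepatocyte and fibroblast marker shifts in the results below was not tested.

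The transcripts of 4 iron genes fell in the TRIM15 knockdown: TFRC by 34.6%, SLC11A2 by 22.6%, IREB2 by 20.6% and FTL by 17.7% of the control mean. The other 6 did not pass the threshold, and none of the 10 was called higher by limma. Calls are adjusted p under 0.05 in limma on log2(FPKM + 1), over the 14847 genes that reached 0.5 FPKM in 3 of the 6 libraries, and all 10 genes passed this filter. Over all genes tested 10.1% were called lower and 8.93% higher, against 4 and 0 of these 10. At an unadjusted p under 0.05, 5 were lower and 1 higher, and limma voom on whole reads called 4 lower and 1 higher. The median log2 fold change of the 10 was -0.09, and that of all genes tested was 0.00143. The groups did not overlap for 7 of the 10 genes, 5 lower and 2 higher, and for 37.8% of all genes tested. In bulk RNA, fewer transcribing cells and less RNA per cell cannot be told apart.

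**Figure D1:**
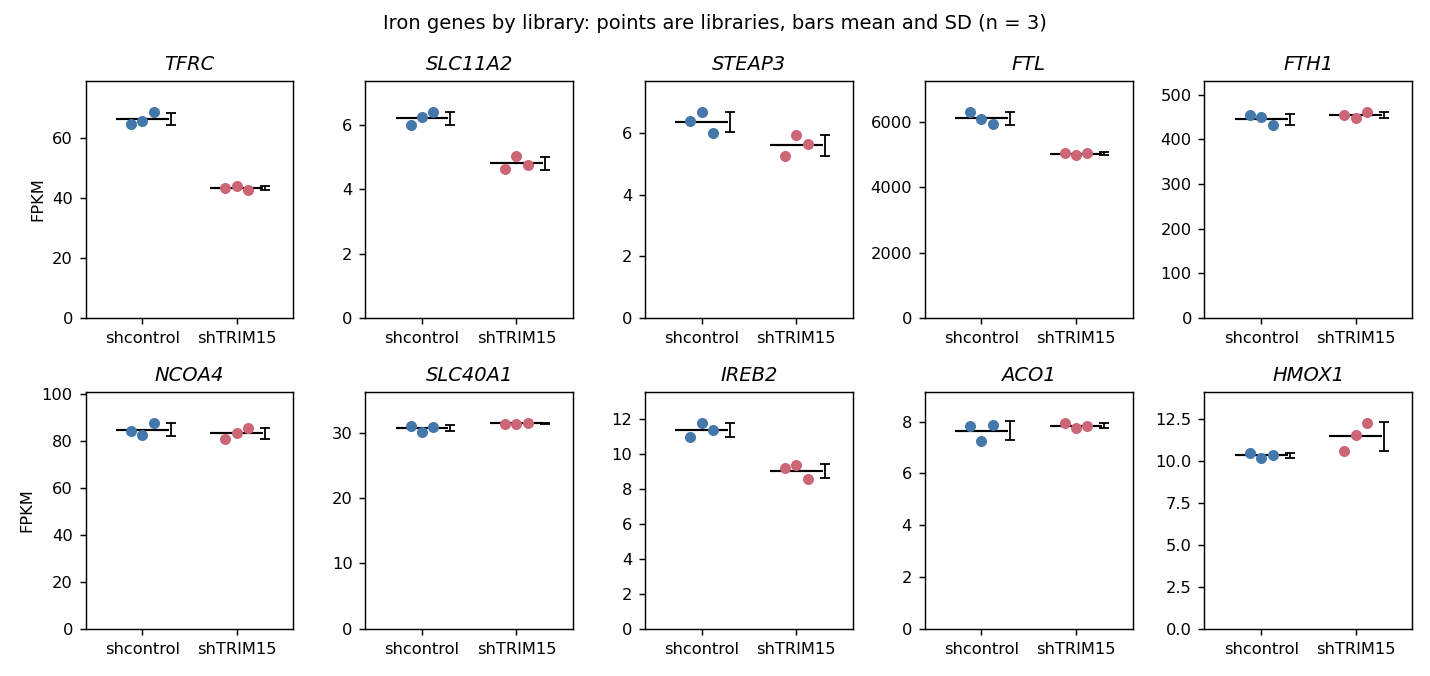
FPKM (vertical axes, each from 0) of the 10 iron genes in the 3 shcontrol libraries (blue) and the 3 shTRIM15 libraries (red), with the mean as a line and the SD as a whisker. TFRC, SLC11A2, FTL and IREB2 were lower in every shTRIM15 library, while FTH1, NCOA4 and ACO1 overlapped between groups.

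The largest change among the 10 was in an uptake gene. TFRC (ENSG00000072274, chromosome 3, 196027183 to 196082189) encodes the transferrin receptor, which carries transferrin-bound iron into the cell. It stood at 64.6, 65.9 and 68.8 FPKM in shcontrol and at 43.5, 44.0 and 42.8 FPKM in shTRIM15. Every knockdown library was below every control library, and the distance between the groups was several times the spread within them. The means were 66.4 ± 2.12 and 43.4 ± 0.629 FPKM (SD, n = 3), for a log2 fold change of -0.60 (SE 0.0280, limma adjusted p = 0.000128). TFRC was number 57 in size among the 1498 genes called lower. Between 5922 and 9845 reads per library lay behind these values.

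SLC11A2 (ENSG00000110911, chromosome 12, 50979401 to 51028566) encodes the divalent metal transporter that moves ferrous iron out of the endosome. It was read at 6.003, 6.23 and 6.40 FPKM in shcontrol and at 4.64, 5.03 and 4.75 FPKM in shTRIM15, without overlap. Its log2 fold change was -0.31 (SE 0.0436, limma adjusted p = 0.00401). Of the 4 iron genes with a match in the 3' UTR when 4 pairs are allowed, TFRC, SLC11A2 and IREB2 fell and ACO1 did not pass the threshold. Of all 626 tested genes with such a match, these 4 included, limma called 82 lower and 72 higher. Over all genes tested 10.1% were lower and 8.93% higher.

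STEAP3 (ENSG00000115107, chromosome 2, 119223831 to 119265652) encodes the endosomal reductase that turns ferric into ferrous iron before SLC11A2 transports it. Its values were 6.38, 6.68 and 6.01 FPKM in shcontrol and 5.25, 5.93 and 5.63 FPKM in shTRIM15. The groups did not overlap, but the nearest libraries were 6.01 and 5.93 FPKM. The log2 fold change of -0.16 (95% interval -0.28 to -0.03) did not pass the threshold (limma adjusted p = 0.0938).

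Storage genes differed from each other. FTL (ENSG00000087086, chromosome 19, 48965301 to 48966878), the light chain of ferritin, was the row with the third-highest mean FPKM of the table and took 0.519 to 0.552% of all reads in shcontrol. It stood at 6305, 6084 and 5931 FPKM in shcontrol and at 5047, 4978 and 5050.3 FPKM in shTRIM15. All knockdown libraries were lower, and the log2 fold change was -0.28 (SE 0.0236, limma adjusted p = 0.000632). The call ended without a filter on low values (limma adjusted p = 0.0548) and under quantile scaling, where the log2 fold change was -0.08 (limma adjusted p = 0.149). Quantile scaling gives the same few top values to the highest rows of every library, and FTL is one of those rows. The part of this in the smaller change was not tested, nor was the cause of the call lost without a filter.

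FTH1 (ENSG00000167996, chromosome 11, 61959718 to 61967660) is the heavy chain of ferritin, which oxidises iron for storage. It was at 454, 450.5 and 431 FPKM in shcontrol and at 454, 447 and 461 FPKM in shTRIM15. The groups overlapped, and the log2 fold change was 0.03 (95% interval -0.03 to 0.09, limma adjusted p = 0.482). Limma voom, run on the whole reads, put the log2 fold change at 0.05 and past the threshold (adjusted p = 0.0386). With voom the median log2 fold change of all genes tested was 0.0235, against 0.00143 in the main test. A rise of FTH1 apart from that general shift was not tested.

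NCOA4 (ENSG00000266412, chromosome 10, 46005088 to 46030714) encodes the receptor that takes ferritin to the lysosome, where its iron is released. It was at 84.4, 82.5 and 87.9 FPKM in shcontrol and at 81.0, 83.5 and 85.4 FPKM in shTRIM15. These ranges overlapped, with a log2 fold change of -0.03 (95% interval -0.10 to 0.05, limma adjusted p = 0.598).

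Both ferritin genes have many processed copies in the genome, and the sources used here do not say where reads that fit several copies went, so ferritin values are uncertain to that extent. The table lists 25 FTH1 copies, of which 14 had a read and 5 passed the filter, and 16 FTL copies, of which 4 had a read and 3 passed. Among the FTH1 copies, FTH1P18, FTH1P19 and FTH1P27 are annotated as unprocessed, and they had no reads. Reads on all copies came to 0.956% of the FTH1 reads and 0.0201% of the FTL reads. FTH1P2 was the most abundant, at 5.76 ± 0.678 FPKM in shcontrol and 6.91 ± 0.499 in shTRIM15 (SD, n = 3; limma adjusted p = 0.0986). FTH1P7 (4.85 FPKM over all libraries), FTH1P8 (3.01 FPKM) and FTH1P23 (1.78 FPKM) followed, and none of the 5 FTH1 copies was called by limma. The 1 copy called was FTLP3, which went from 1.05 ± 0.367 to 0.370 ± 0.0408 FPKM (SD, n = 3; limma adjusted p = 0.0346) on 3 to 13 reads per library. FTLP14 and FTLP12, the other tested FTL copies, had 1 to 9 reads per library. NCOA4 has 3 listed copies, all without reads.

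Export did not pass the threshold. SLC40A1 (ENSG00000138449, chromosome 2, 189560579 to 189583758) encodes ferroportin, the iron exporter of the cell surface. It was at 30.9, 30.1 and 30.9 FPKM in shcontrol and at 31.3, 31.4 and 31.5 FPKM in shTRIM15. Each knockdown value was above each control value, by a margin smaller than the spread among the controls. The log2 fold change was 0.04 (95% interval -0.02 to 0.09, limma adjusted p = 0.326). Of the 3 genes printed above with a 5' UTR hairpin, FTL was called lower, and FTH1 and SLC40A1 did not pass the threshold. Of all 27 tested genes with such a 5-pair hairpin, limma called 2 lower and 5 higher. These 27 include FTH1, FTL and SLC40A1, and FTL is among the 2 lower. The shares over all genes tested were 10.1% lower and 8.93% higher.

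**Figure D2:**
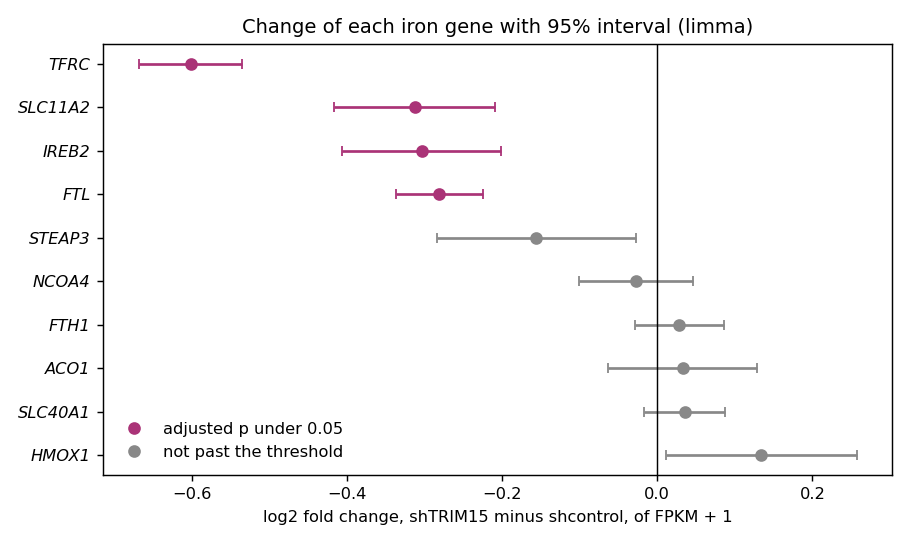
Log2 fold change of FPKM + 1 (horizontal axis, shTRIM15 minus shcontrol) of each iron gene, with its 95% interval from limma. TFRC at -0.60 lies apart from SLC11A2, IREB2 and FTL, which lie between -0.31 and -0.28; the other 6 genes (grey) did not pass the threshold.

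Of the iron regulatory proteins, 1 was called. IREB2 (ENSG00000136381, chromosome 15, 78437431 to 78501456) encodes iron regulatory protein 2, which is degraded when iron is plentiful. It was at 10.98, 11.8 and 11.3 FPKM in shcontrol and at 9.16, 9.35 and 8.54 FPKM in shTRIM15. Every knockdown library was lower, and the log2 fold change was -0.30 (SE 0.0434, limma adjusted p = 0.0044).

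ACO1 (ENSG00000122729, chromosome 9, 32384603 to 32454769) encodes iron regulatory protein 1, which holds an iron-sulfur cluster and acts as the cytosolic aconitase when iron is plentiful. Its values were 7.84, 7.24 and 7.88 FPKM in shcontrol and 7.96, 7.77 and 7.81 FPKM in shTRIM15. The groups overlapped (log2 fold change 0.03, 95% interval -0.06 to 0.13, limma adjusted p = 0.636).

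HMOX1 (ENSG00000100292, chromosome 22, 35380361 to 35394214) encodes heme oxygenase 1, which opens the heme ring and frees its iron. It was at 10.47, 10.2 and 10.4 FPKM in shcontrol and at 10.6, 11.6 and 12.3 FPKM in shTRIM15. The knockdown values were all higher, but shTRIM15 replicate 1 lay next to the controls and the SD was 0.148 FPKM in shcontrol and 0.860 in shTRIM15. The log2 fold change of 0.13 (95% interval 0.01 to 0.26) did not pass the threshold (limma adjusted p = 0.125). Without shTRIM15 replicate 1 it was 0.19 and passed (limma adjusted p = 0.0364). HMOX1 had 432 to 549 reads per library, and the lowest count has an exact Poisson 95% interval of 392 to 475, which covers counting error only.

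By level, FPKM being per length, FTL came first in both groups, followed by FTH1, NCOA4, TFRC and SLC40A1. In shcontrol IREB2 (11.4 ± 0.401 FPKM) came before HMOX1 (10.3 ± 0.148 FPKM, SD, n = 3), and in shTRIM15 HMOX1 (11.5 ± 0.860 FPKM) came before IREB2 (9.02 ± 0.425 FPKM). ACO1, STEAP3 and SLC11A2 were the lowest of the 10. In shcontrol STEAP3 (6.36 ± 0.335 FPKM) and SLC11A2 (6.21 ± 0.200 FPKM) did not differ beyond their spread.

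Few reads lay on genes that overlap the 10 on the genome. BEST1 overlaps FTH1 on the opposite strand and had 15.5 reads per library on average, against 16733 for FTH1. STEAP3-AS1 overlaps STEAP3 in the same way with 5.67 reads against 500.0. AC024937.1 and RNU7-18P (TFRC), RNU6-87P (SLC11A2) and AC027228.1 (IREB2) had at most 2 reads on average.

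Ratios between genes of the same library do not depend on a scaling factor per library. TFRC stood to FTH1 as 0.142, 0.146 and 0.160 in shcontrol and as 0.0958, 0.0985 and 0.0928 in shTRIM15, a drop of the FPKM ratio without overlap (-0.64 as a log2 difference of mean log2 ratios). FTH1 to FTL went the other way, from 0.0720, 0.0740 and 0.0726 to 0.0899, 0.0898 and 0.0913, also without overlap (0.31 as a log2 difference). IREB2 to ACO1 was 1.40, 1.63 and 1.44 in shcontrol and 1.152, 1.204 and 1.09 in shTRIM15 (-0.37 as a log2 difference). FTH1 to SLC40A1 was 14.5 ± 0.512 and 14.4 ± 0.194 (SD, n = 3) and overlapped. In a two-sided exact permutation test the first 3 ratios each gave p = 0.1, the smallest that 3 against 3 libraries allow, and the fourth gave p = 0.8. Adjusted over the 4 ratios these are 0.133 and 0.8.

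**Figure D3:**
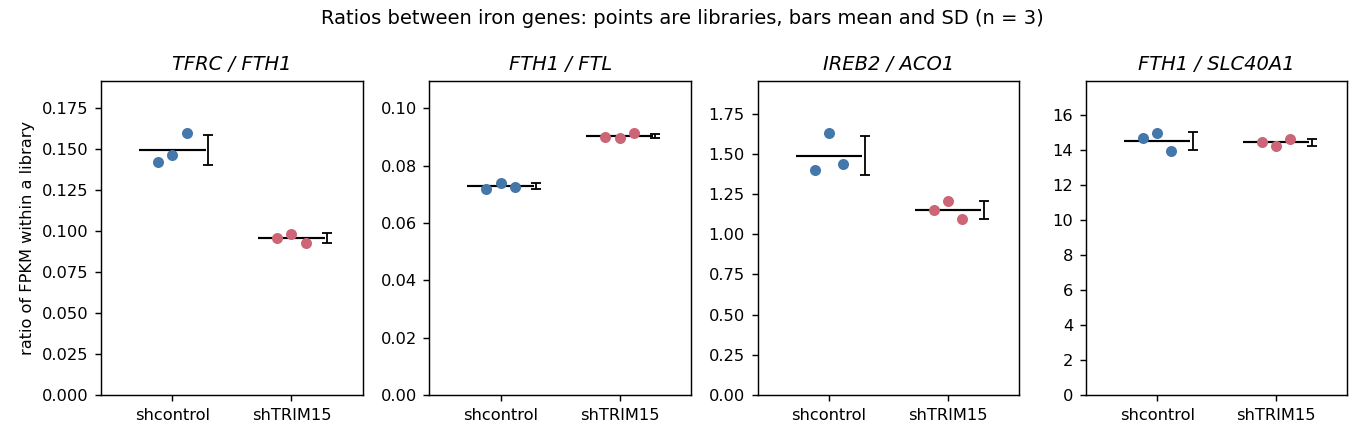
Ratio of FPKM between pairs of iron genes within a library (vertical axes, each from 0), for shcontrol (blue) and shTRIM15 (red), with the mean as a line and the SD as a whisker. TFRC/FTH1 and IREB2/ACO1 were lower and FTH1/FTL was higher in every shTRIM15 library, and FTH1/SLC40A1 overlapped.

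Other genes of iron and heme handling moved in both directions. Of 111 such genes in 9 lists, 93 passed the filter, of which limma called 11 higher (11.8%) and 12 lower (12.9%). These are close to the shares over all genes tested, 8.93% higher and 10.1% lower, which also stand beside each list count below. Their median log2 fold change was -0.00578. The count of higher genes was 6 without shTRIM15 replicate 1 or 3 and 17 with limma voom on whole reads.

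In the uptake list 0 of 9 tested genes were called higher by limma (0 at an unadjusted p under 0.05, 0 by voom). It called 1 lower (2 at an unadjusted p under 0.05, 1 by voom). The called gene was TF, the gene of transferrin, which went from 40.0 ± 0.336 to 37.5 ± 0.392 FPKM (SD, n = 3; limma adjusted p = 0.0248). Its call was lost without shTRIM15 replicate 1, 2 or 3 (adjusted p = 0.0627, 0.0668 and 0.0869) or shcontrol replicate 2 or 3 (0.0802 and 0.0611), and in a model without a variance trend (0.0960). TFR2, the second transferrin receptor gene, and HFE, which binds the receptor, were at 2.07 and 2.51 FPKM in shcontrol and 1.90 and 2.39 FPKM in shTRIM15. SLC39A14, which carries iron not bound to transferrin, was at 93.5 ± 0.773 and 93.7 ± 0.473 FPKM (SD, n = 3; limma adjusted p = 0.909). SLC39A8, the other gene lower at an unadjusted p under 0.05, was at 10.3 ± 0.371 and 9.38 ± 0.341 FPKM (SD, n = 3). Its groups did not overlap, and it did not pass the threshold (limma adjusted p = 0.0771).

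Among 8 tested genes of export and systemic control limma called 0 higher (0 higher at an unadjusted p under 0.05, 0 by voom). It called 3 lower, 37.5% against 10.1% over all genes tested. These were SMAD4 (log2 fold change -0.34, SE 0.0508) and SMAD5 (-0.21, SE 0.0331), mediators of bone morphogenetic protein signals, and BMPR2 (-0.27, SE 0.0569), a receptor for them. Other tested genes of the same signalling route did not pass the threshold: the receptors BMPR1A (-0.06) and ACVR1 (-0.03) and the ligand BMP6 (0.00142), with limma adjusted p of 0.439, 0.753 and 0.993. The BMPR2 call was lost without shTRIM15 replicate 1, 2 or 3 (limma adjusted p = 0.0625, 0.0532 and 0.0518) or shcontrol replicate 2 or 3 (0.0637 and 0.0570), and with no filter (0.0526). HAMP, the hepcidin gene itself, was at 0.284 and 0.235 FPKM and too low to test.

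Genes that act on the iron regulatory proteins or on TFRC and HMOX1 transcripts had 2 higher and 4 lower of 17. HIF1A, a hypoxia factor known to act on the TFRC gene, fell from 112 ± 2.72 to 86.2 ± 1.84 FPKM (SD, n = 3; -0.37 on the log2 scale). RC3H2, which encodes an RNA-binding repressor of the roquin family, fell by 0.24 on the log2 scale. MYC, which is also known to act on TFRC, rose from 16.99 ± 0.481 to 20.7 ± 1.18 FPKM (SD, n = 3; 0.27), and ZFP36L1, an RNA decay factor, rose (0.19). NFE2L2 (-0.12), the NRF2 gene that acts on HMOX1 and ferritin genes, and SKP1 (-0.15), a subunit of the ligase that degrades IREB2 protein, were the other 2 lower genes and were named after their values were seen. Without a variance trend NFE2L2 was at limma adjusted p = 0.0524 and SKP1 at 0.0626. The SKP1 call was lost without shTRIM15 replicate 1 or 3 (limma adjusted p = 0.0682 and 0.0673) or shcontrol replicate 1, 2 or 3 (0.0743, 0.0607 and 0.0745), and with no filter (0.0646). FBXL5, the iron-sensing subunit of that ligase, was at 11.3 ± 0.448 and 10.1 ± 0.408 FPKM (SD, n = 3; limma adjusted p = 0.0515).

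In the list of ferritin and iron chaperones limma called 1 of 7 higher and 1 lower. RB1CC1, an autophagy gene, fell (log2 fold change -0.31), and PCBP1, which delivers iron to ferritin, rose from 86.8 ± 2.69 to 93.5 ± 0.602 FPKM (SD, n = 3; 0.11). The PCBP1 call was lost without shTRIM15 replicate 1, 2 or 3 (limma adjusted p = 0.0845, 0.0727 and 0.0920) or shcontrol replicate 2 or 3 (0.0861 and 0.0632), and with no filter or no variance trend (0.0737 and 0.102).

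Heme synthesis had 2 higher and 1 lower of 11. SLC25A38, the mitochondrial glycine carrier, rose from 20.1 ± 0.334 to 26.04 ± 0.461 FPKM (SD, n = 3; a log2 change of 0.36), and FECH, which inserts iron into heme, rose by 0.24 on the log2 scale. CPOX, an earlier enzyme of the same pathway, fell from 22.8 ± 0.339 to 19.5 ± 0.563 FPKM (SD, n = 3; -0.22). Of 9 tested genes of heme breakdown and transport limma called 0, with 1 higher and 2 lower at an unadjusted p under 0.05 and 1 higher by voom.

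Mitochondrial iron and iron-sulfur cluster genes had 3 higher and 1 lower of 20. ABCB10, a transporter of the mitochondrial inner membrane, had the largest change of the 93 genes, from 11.1 ± 0.689 to 6.54 ± 0.619 FPKM (SD, n = 3; a log2 change of -0.68, SE 0.0688, limma adjusted p = 0.0012). ISCA1, a cluster assembly gene, rose from 19.5 ± 0.539 to 24.0 ± 1.36 FPKM (0.28), and the cysteine desulfurase gene NFS1 (0.18) and the chaperone gene HSPA9 (0.11) rose by less. The list had 1 higher gene without shTRIM15 replicate 1 or 3: NFS1 was then at limma adjusted p = 0.0556 and 0.0567, and HSPA9 at 0.0506 and 0.0531. NFS1 was also lost without shcontrol replicate 2 (0.0594) and HSPA9 without a variance trend (0.0663).

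Of 9 cytosolic iron-sulfur assembly genes, limma called 2 higher and 0 lower (4 and 0 at an unadjusted p under 0.05, 4 and 0 by voom). These were NUBP2 (log2 fold change 0.15) and CIAO3 (0.18). The list had 0 higher genes without shTRIM15 replicate 1 or 3, where NUBP2 was at limma adjusted p = 0.0571 and 0.0616 and CIAO3 at 0.0593 and 0.134. It had 1 without shTRIM15 replicate 2 or shcontrol replicate 3 and 3 without shcontrol replicate 1. CIAO3 was lost without any 1 library (adjusted p of 0.0593 to 0.134) and with no filter (0.103).

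Other transcripts are also reported to hold an iron-responsive element. Of these CDC42BPA, a kinase gene, fell (log2 fold change -0.22). EPAS1, the gene of hypoxia factor 2-alpha, was at 34.8 ± 0.629 and 33.9 ± 0.144 FPKM (SD, n = 3; limma adjusted p = 0.308), and CDC14A, which has a 5-pair match in its 3' UTR, was at 1.94 and 1.84 FPKM (limma adjusted p = 0.622). In the UTRs of CDC42BPA and EPAS1 the search described above found no match, also with 4 pairs allowed.

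**Figure D4:**
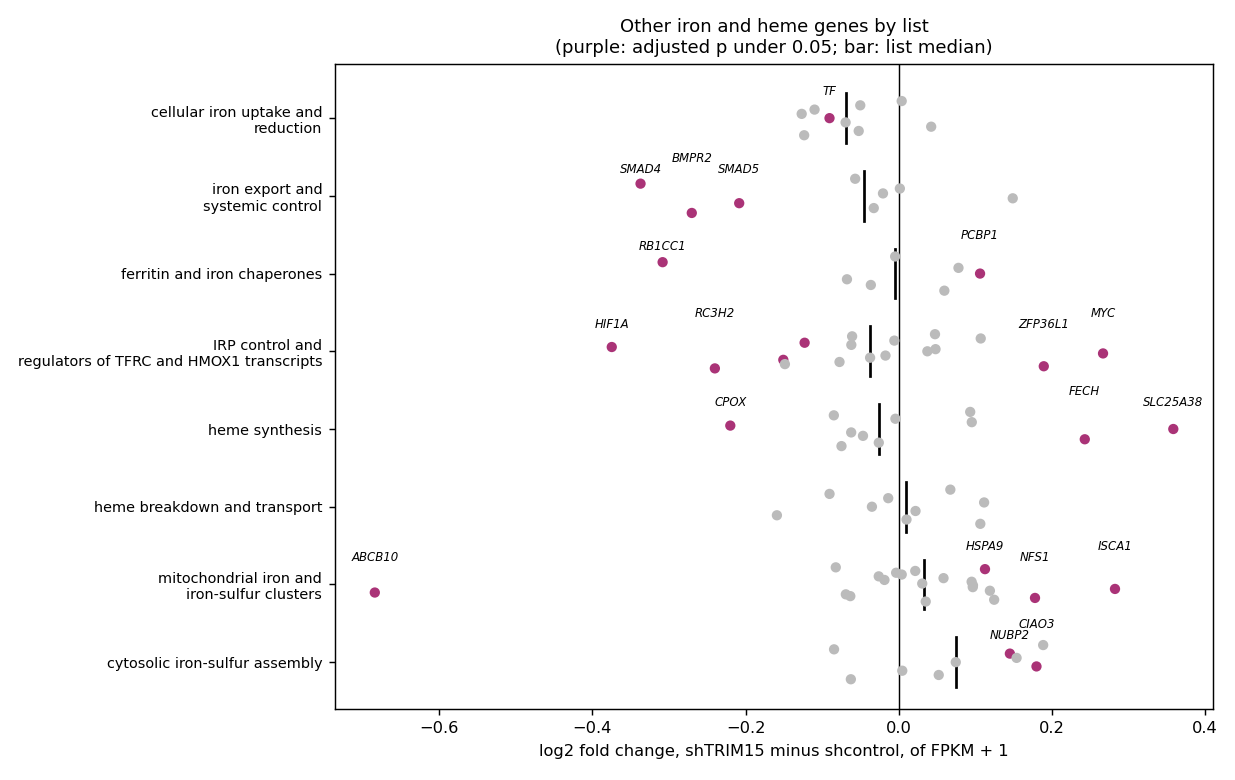
Log2 fold change of FPKM + 1 (horizontal axis, shTRIM15 minus shcontrol) of the tested genes of 8 iron or heme lists; purple points have a limma adjusted p under 0.05, grey points do not, and the bar is the list median. ABCB10 at -0.68 lies farthest from 0, and list medians lie between -0.07 and 0.07.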

How the data were processed

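The authors deposited one table of FPKM values per gene, with 1 column per library (3 shcontrol, 3 shTRIM15) and, per the file headers, a gene length in bases. Per the labels' protocols, mRNA-enriched libraries were made with a directional kit; the aligner, the counter and use of strand are not given in the sources used here. The submitters' processing notes name the build mm10, a mouse build, but all 58735 rows equal GENCODE 29 genes on GRCh38 in identifier, start and end, so GRCh38 coordinates are given. Whole reads per gene were recovered from FPKM times gene length, which moves in even steps within a library (100% of values whole within 0.01). Median-of-ratios factors were equal in all libraries (1.00), so the deposited values already carry such a scaling.

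Genes that reached 0.5 FPKM in 3 of the 6 libraries were tested on log2(FPKM + 1), which understates changes of low genes, with limma 3.58.1 in R 4.3.3 (mean-variance trend, two-sided, Benjamini-Hochberg over all genes tested, threshold 0.05). Intervals are 95%. Ratios used exact permutation tests in SciPy 1.17.1. The procedure was tested on simulated data. The 10 genes and the 9 lists were chosen with earlier results of these data known. Named were all 10 genes, up to 4 called genes per list by size of change, tested processed copies (up to 4 per gene by mean FPKM), overlapping genes, TRIM15 and the most abundant markers; other list genes and markers were named after their values were seen, and some genes the rule names are not reported here. Alternatives were other pseudocounts, filters, scalings, variance models, voom on reads, a replicate block and leaving out each library.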

Additional observations from a re-analysis of the deposited data

How the results depend on the processing

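TFRC, SLC11A2 and IREB2 were called lower under all 15 alternatives (log2 fold changes of -0.62 to -0.58, -0.36 to -0.29 and -0.33 to -0.27), and FTL under 13 of 15. Among these 15, median-of-ratios scaling divided every library by the same factor, so it all but repeats the main test and is no separate check. The count of lower iron genes was 4, or 3 with no filter and under quantile scaling. None was called higher by limma except FTH1 with voom (1 higher) and HMOX1 when 1 library was left out (0 to 1 higher). List genes called higher were 17 with voom and 6 to 12 with 1 library left out. With 1 library left out ACO1 had log2 fold changes of -0.00259 (without shcontrol replicate 2) to 0.0518, and the log2 ratio of FTH1 to SLC40A1 turned to 0.00707 under quantile scaling, 0.0134 without shcontrol replicate 2 and 0.00258 without shTRIM15 replicate 2 (-0.0362 to 0.0134 with any 1 library left out); none of these was past a threshold and the cause was not tested. The log2 ratio of FTH1 to FTL was 0.12 under quantile scaling. Over all genes, 1326 were called higher and 1498 lower, against 2360 and 1822 with voom (median log2 fold change 0.0235), 884 and 1004 with no filter, and 792 to 1115 and 978 to 1224 with 1 library left out.

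Replicate numbers are shared between groups, but same-numbered libraries hardly deviated together (correlations of 0.0125, 0.00862 and 0.0133), although each library correlated best with its own number. With the replicate number as a block, 883 genes were higher and 1030 lower, 4 iron genes were lower and 0 higher (limma), and 8 list genes were higher and 10 lower; the calls of TF, PCBP1, NFS1, CIAO3, NUBP2 and SKP1 were lost. STEAP3 and HMOX1, at 432 to 549 reads per library, are the genes for which depth limits precision most.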

Other observations

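The hairpin of the iron-responsive element was also looked for in every protein-coding gene, without regard to iron function. With all 5 pairs it was present in the 3' UTR of 104 tested genes, of which limma called 17 lower and 8 higher; their median log2 change was -0.04. In the 5' UTR it was present in 27 tested genes, of which 2 were lower and 5 higher, with a median of 0.03. With 4 pairs allowed, 626 tested genes had it in the 3' UTR (82 lower, 72 higher, median -0.00917) and 195 in the 5' UTR (21 lower, 27 higher, median 0.02). Over all genes tested 10.1% were called lower and 8.93% higher. The counts are descriptions: longer UTRs have more room for a match, and UTR length was not taken into account. The 3' UTR counts include TFRC and, with 4 pairs allowed, also SLC11A2, IREB2 and ACO1. The 5' UTR counts include FTH1, FTL and SLC40A1, and FTL is 1 of the 2 lower genes with all 5 pairs.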
